A study of Homo sapiens with 4 samples.

Results

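The replication-dependent histone gene clusters were examined as targets of the RNA-binding protein LARP4 in HEK293, an established line of human embryonic kidney cells. All intervals of the deposited LARP4 eCLIP lists were taken, on both strands, that overlapped chr6:26017000-26286000, chr6:27774000-27866000 or chr1:149782000-149860000 (hg19, counted from 1). The plus strand of chr6:26087000-26096000, where the neighbouring gene HFE lies, was to be left out, and it held 0 intervals. The members were 75 of 171755 intervals in replicate 1 and 70 of 191899 in replicate 2. The third list, the authors' series-wide list of 7153 regions, had 0 members.

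In eCLIP, proteins are crosslinked to the RNA in contact with them by ultraviolet light, and the protein of interest is pulled down by an antibody together with that RNA. The sequenced RNA is set against a size-matched input, taken at the same gel height but without immunoprecipitation. The study's groups were LARP4 eCLIP with 2 samples and size-matched input with 2 samples, all from unmodified HEK293 cells crosslinked at 254 nm with 400 mJ/cm2. Each value below is the authors' log2 fold of eCLIP over input for an interval, and −log10 p is the authors' value for the same comparison. The inputs entered only as the denominator. The number of reads behind an interval is unknown, because the lists hold ratios.

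LARP4 is a La-related protein that binds poly(A) and the cytoplasmic poly(A)-binding protein and protects poly(A) tails of mRNAs. Replication-dependent histone genes are short and without introns, and they are transcribed mainly in S phase to package new DNA. Most of their mRNAs end in a conserved stem-loop instead of a poly(A) tail. The stem-loop is bound by the stem-loop binding protein, and the end is made by cleavage guided by the U7 small nuclear RNA. The clusters therefore hold mRNAs that mostly lack the feature LARP4 is known to bind, although some histone genes also give polyadenylated forms.

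RefSeq's GRCh38.p14 annotation shows which genes neighbour each other in these clusters. Around HFE, the run of protein-coding histone genes on chromosome 6 from H1-1 to H4C8 has 32 genes, 5 of the linker histone H1 and 4, 8, 7 and 8 of the core histones H2A, H2B, H3 and H4. The later run from H2BC13 to H2BC17 has 16 genes. The chromosome 1 run from H2BC18 to H2AC21 has 11 genes. The core histones form the protein spool of the nucleosome, and H1 binds the DNA between nucleosomes. The build of the lists is hg19, so no interval was assigned to a gene and intervals are given by position. Some histone genes of a class are closely similar in their coding sequence, so reads may be shared between copies, and the labels do not state how such reads were placed.

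Binding above input was moderate at the histone clusters. The median log2 fold of the members was 0.97 in replicate 1 and 1.18 in replicate 2, or 1.08 ± 0.15 (SD, n = 2). The medians of all intervals were 1.28 and 1.30. The difference between members and all others was −0.31 in replicate 1 and −0.11 in replicate 2, with a mean of −0.21 ± 0.14 (SD, n = 2). The members were lower in both replicates, but by amounts that differed between replicates about as much as the difference itself. The middle 50% of members ran from 0.64 to 1.35 in replicate 1 and from 0.77 to 1.74 in replicate 2. Over whole lists these ranges were wider, from 0.53 to 2.04 and from 0.49 to 2.01.

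Few members reached high folds in replicate 1, and replicate 2 members reached them about as often as all intervals. An interval was called enriched where the log2 fold and the −log10 p were both 3 or more. In replicate 1 this held for 0 of 75 members, a count that allows a share of up to 4%, against 5.01% of all intervals. In replicate 2 it held for 5 of 70 members, or 7.14% (Wilson 95% interval 3.09 to 15.7), against 5.50% of all intervals. The share in replicate 2 was near the background. No interval was enriched in both replicates. A log2 fold of at least 2, with any p, was reached by 4 members (5.33%, interval 2.09 to 12.9) in replicate 1, against 25.4% of all intervals. In replicate 2 it was reached by 13 (18.6%, 11.2 to 29.2), and the background of 27.0% lies within that interval. With a −log10 p of at least 3 added, the shares were 4% (1.37 to 11.1) against 11.0% in replicate 1 and 14.3% (7.95 to 24.3) against 11.3% in replicate 2. A log2 fold of at least 3 with any p was reached by 8.57% (3.99 to 17.5) of replicate 2 members, against 7.18%. At a log2 fold of at least 1 the order of members and all intervals differed between replicates, with 46.7% against 59.4% in replicate 1 and 65.7% against 60.9% in replicate 2. These intervals treat neighbouring intervals as independent and cover counting error only.

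Members below input were few. A negative log2 fold was present in 5 members (6.67%, 2.88 to 14.7) of replicate 1, against 11.6% of all intervals, which that interval includes. In replicate 2 it was present in 2 members (2.86%, 0.787 to 9.83), against 11.2%. The lowest member values were −0.81 in replicate 1, at chr6:27775643-27775661 on the minus strand, and −0.41 in replicate 2, at chr1:149819600-149819655 on the minus strand. Values of −1 or less were held by 0 of 75 and 0 of 70 members, which allows up to 4% and 4.29%. All intervals had it in 2.43% and 2.37%, so the counts of 0 were not distinguishable from the background. The plot of folds by window sets the members beside the spread of all intervals.

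**Figure D1:**
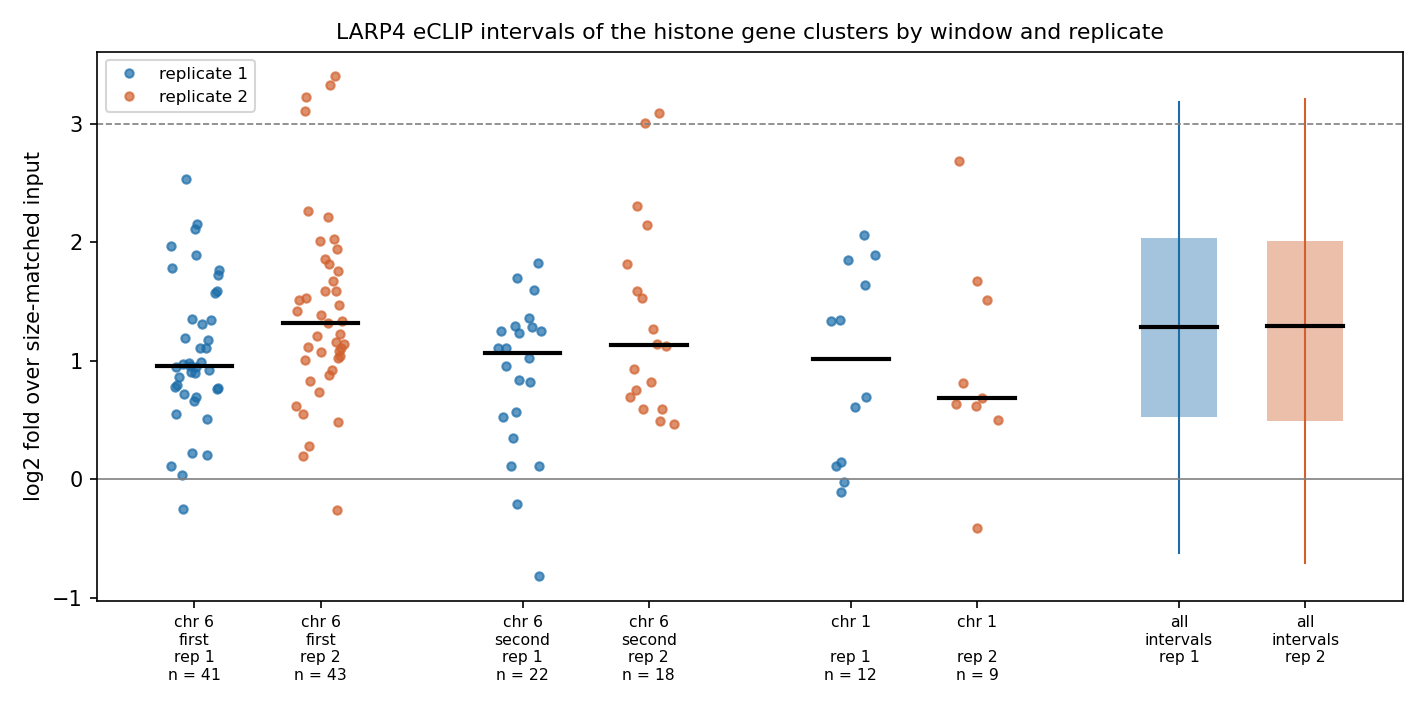
Log2 fold over size-matched input (vertical axis) of each histone-cluster interval, by window and replicate, as points with the median as a black bar. At the right, boxes give the middle 50% and lines the 5th to 95th percentile of all intervals of each replicate; the dashed line marks a log2 fold of 3, which 0 members of replicate 1 and 6 of replicate 2 reached.

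Although their folds were moderate, more of the members had a small p. A −log10 p of at least 3 was present in 21 members (28.0%, 19.1 to 39.0) of replicate 1, against 14.2% of all intervals, and in 27 (38.6%, 28.0 to 50.3) of replicate 2, against 13.8%. The median −log10 p was 1.78 and 1.93 for members and 0.565 and 0.541 for all intervals. The highest member values were 21.1 and 23.3. Members were also wider, with a median of 69.0 and 66.0 bases against 51.0 and 50.0. Whether width had a part in these values was not tested.

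Among intervals with a −log10 p of at least 3, the median of the members was lower than that of the others. The p is computed for the same fold, so this selection depends on the value compared, and the share of members that passed it was larger. Their median log2 fold was 1.59 in replicate 1 (n = 21 intervals) against 2.64 for the others. In replicate 2 it was 1.67 (n = 27 intervals) against 2.73. The difference was −1.05 ± 0.0054 (SD, n = 2), which placed the median of these histone-cluster intervals below a log2 fold of 2 and that of the others above it. No test was made, since 2 replicates cannot give an exact p under 0.05 and intervals of a list are not replicates.

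Histone-cluster intervals recurred between replicates. Of the replicate 1 members, 57 (76.0%, 65.2 to 84.2) shared at least 1 base with a replicate 2 interval on the same strand, against 44.8% of all replicate 1 intervals. Of the replicate 2 members 57 (81.4%, 70.8 to 88.8) did so, against 40.1%. Among replicate 1 intervals with a −log10 p of at least 3 the shares were closer, at 20 of 21 members (95.2%) against 89.4% of all such intervals. Members were wider and more often had such a p, and whether this had a part in their recurrence was not tested. The bars of shares set these percentages beside those of the folds and p-values.

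**Figure D2:**
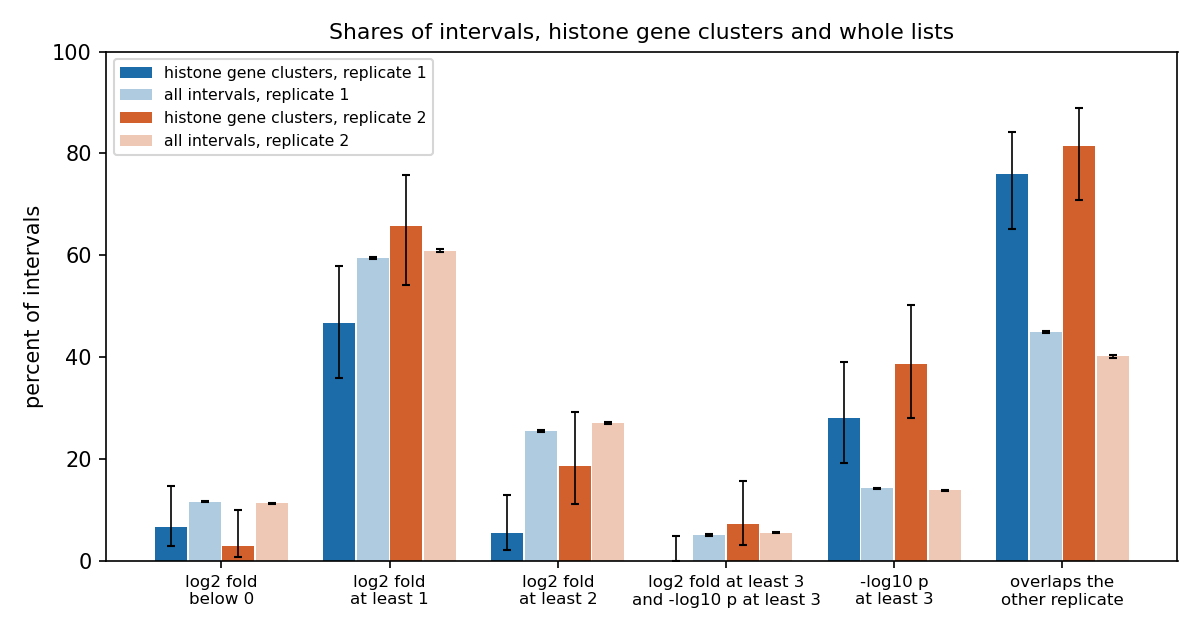
Percent of intervals (vertical axis) that meet each criterion, for the histone gene clusters (dark bars) and the whole lists (pale bars) in replicates 1 and 2; lines are 95% Wilson intervals. Members overlapped the other replicate and had a −log10 p of at least 3 in larger shares than all intervals in both replicates; at a log2 fold of at least 2 the line of replicate 2 includes the share of all intervals and that of replicate 1 lies below it.

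Among overlapping pairs, the members were below the level of pairs elsewhere in both replicates. Each pair is a replicate 1 member and the replicate 2 interval with the longest overlap, and some pairs share a replicate 2 interval. The median log2 fold of overlapping members was 0.97 in replicate 1 and 1.12 in replicate 2, against 1.47 and 1.59 for all other overlapping intervals. The difference of −0.48 ± 0.02 (SD, n = 2) was larger than the spread between replicates. Both values were above input in 52 of the 57 pairs, 5 pairs had opposite signs and 0 were below input in both, against 4.86% of all pairs. Both log2 folds were 1 or more in 20 pairs (35.1%), against 56.3% of all pairs, and 2 or more in 1 pair (1.75%), against 23.0%. A −log10 p of at least 3 was present on both sides of 13 pairs (22.8%), near the 23.2% of all pairs.

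The replicates agreed within 1 log2 unit in 49 of 57 pairs (86.0%), against 73.4% of all pairs. The replicate SD within a pair was 0.49 for members and 0.67 for all pairs. Replicate 2 was the higher in 41 of 57 pairs (71.9%), against 53.9% of all pairs. Pearson's r over the 57 pairs was 0.53 and Spearman's rho 0.47, against 0.74 and 0.67 over all 77005 pairs. These describe intervals, which share their libraries and lie close together in short genes. The plot of paired folds shows the points above the diagonal.

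**Figure D3:**
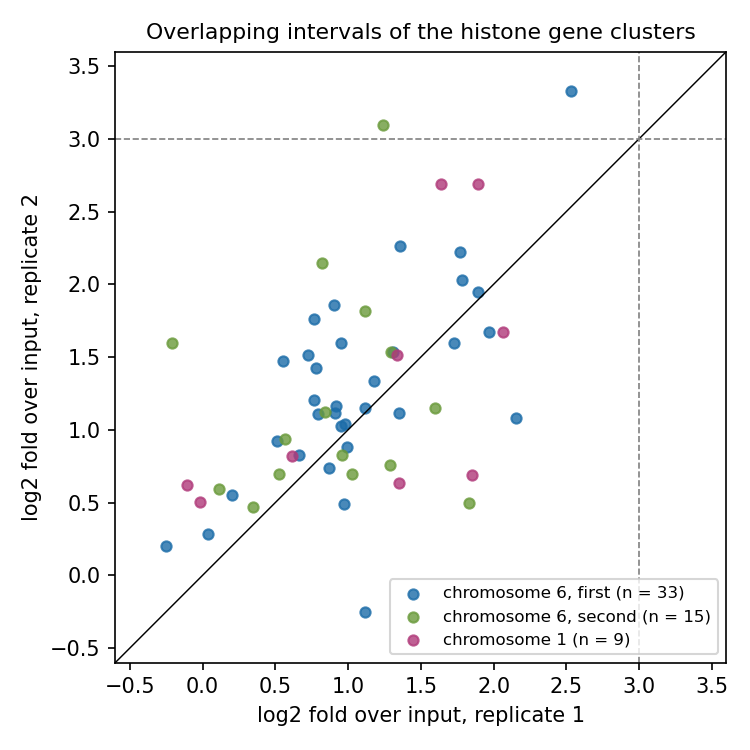
Log2 fold over input in replicate 1 (horizontal axis) and replicate 2 (vertical axis) of the 57 pairs of overlapping intervals in the histone gene clusters, coloured by window; the black line marks equal values and dashed lines a log2 fold of 3. Of the pairs, 41 lie above the line of equal values and none reaches 3 in both replicates.

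In replicate 2, 3 of the 5 enriched intervals lay in a single locus. Intervals of either replicate on the same strand were joined into a locus wherever at most 1 kb parted them. The 3 lay close together on the plus strand, at chr6:26104285-26104363 with a log2 fold of 3.33, at chr6:26104364-26104405 with 3.40 and at chr6:26104464-26104478 with 3.11. The replicate 1 interval overlapping the first had 2.53, and the other 2 had no replicate 1 partner. The fourth, at chr6:26188979-26189001 on the minus strand, had 3.23 and no replicate 1 partner. The fifth, at chr6:27806720-27806775 on the plus strand, had 3.10 where replicate 1 had 1.24. An interval of 5 bases at chr6:27839740-27839744, on the minus strand, reached 3.01 but with a −log10 p of 1.68 was not called. Without the locus of the first 3, 2 of 66 replicate 2 members (3.03%) were enriched. That locus was left out after the values were seen, as the one with the highest level, so the share had to fall. The 5.50% of all intervals had no such locus removed and is not a like comparison for it.

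The members formed 36 loci, of which 16 were on the plus strand and 20 on the minus strand. Their median span was 274 bases, against 94.0 bases for all loci, and the longest was 1672 bases. A single interval made up 4 of the 36 member loci, against 48301 of all 106570 loci, so these spans compare unlike loci. Intervals of both replicates were present in 30 of the member loci, of replicate 1 alone in 5 and of replicate 2 alone in 1. A series-wide region was present in 0 of the 36 loci, which allows a share of up to 8.33%, against 2.60% of all loci. Of the 30 with both replicates 0 held one, which allows up to 10%, against 5.55%. Counted over intervals, 0 of 75 and 0 of 70 members overlapped a series-wide region, which allows up to 4% and 4.29%, against 4.19% and 3.78% of all intervals. The Wilson upper bounds for these 2 counts are 4.87% and 5.20%, both above the background, so the number of members is too small to tell 0 from the background shares.

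Levels of the loci lay mostly near a log2 fold of 1. The level of a locus is the mean log2 fold of its intervals in each replicate, averaged over both. The median over the 30 loci was 0.87 in replicate 1 and 1.20 in replicate 2, against 1.16 and 1.19 for all loci with both replicates. The levels ran from 0.39 to 2.58 with a median of 1.13, against 1.17 for all loci. Both replicates were at 1 or higher in 12 loci (40.0%, against 44.5% of all such loci), at 2 or higher in 1 (3.33%, against 9.88%), and below 0 in 0 (against 4.99%). Replicate 2 was the higher in 25 of the 30 loci (83.3%), against 50.7% of all such loci. The plot of locus levels shows this shift along both chromosomes.

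**Figure D4:**
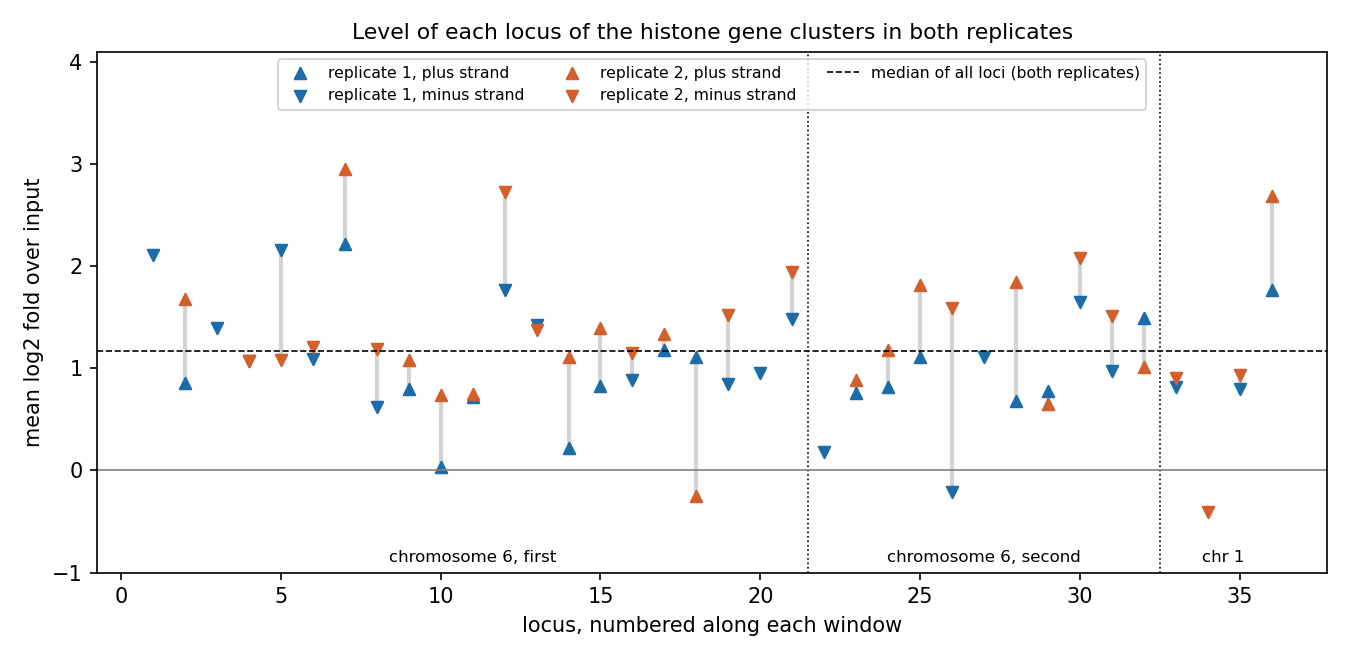
Mean log2 fold over input (vertical axis) of each of the 36 loci, numbered along the windows (horizontal axis), in replicates 1 and 2, with the strand given by the direction of the triangle and a grey line joining the replicates. Dotted lines part the windows and the dashed line is the median level of all loci, 1.17; locus 7 is the highest, at 2.58.

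The highest locus was the first past HFE, on the plus strand at chr6:26104199-26104478 (locus 7). Its 2 intervals in replicate 1 had log2 folds of 1.90 and 2.53, and its 4 in replicate 2 had 1.94, 3.33, 3.40 and 3.11. Its level was 2.21 in replicate 1 and 2.95 in replicate 2, or 2.58 ± 0.52 (SD, n = 2), and both replicates held their highest −log10 p of all members here. The last locus before HFE was on the minus strand at chr6:26056466-26056666 (locus 6), with a level of 1.15 ± 0.08 (SD, n = 2). In the RefSeq order the protein-coding genes next to HFE are H1-2, which encodes a linker histone, before it and H4C3, which encodes the core histone H4, after it. RefSeq is of another build, and this order alone does not identify the intervals.

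Locus 7 was followed by locus 12, on the minus strand at chr6:26188979-26189223, with 2.25 ± 0.68 (SD, n = 2). Locus 36, on the plus strand at chr1:149858552-149858685, had 2.23 ± 0.65. Locus 30, on the minus strand at chr6:27839692-27839845, had 1.86 ± 0.30. Locus 21, at the end of the first window on the minus strand, chr6:26285364-26285744, had 1.71 ± 0.33. Neighbours in this order differed by less than the larger of their SDs between replicates. Replicate 1 alone would place locus 5 (2.16), at chr6:26033612-26033739, second to locus 7 (2.21) among loci with both replicates.

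The lowest levels were 0.39 ± 0.50 (SD, n = 2) in locus 10, on the plus strand at chr6:26156588-26156802, and 0.43 ± 0.97 in locus 18, on the plus strand at chr6:26225620-26225746. In locus 18 the replicates had opposite signs, at 1.11 and −0.25. The same was so in locus 26, on the minus strand at chr6:27798953-27799011, at −0.21 and 1.59. Low levels with close replicates were present in locus 29 (chr6:27833139-27833432, plus strand, 0.71 ± 0.09) and locus 11 (chr6:26158379-26158762, plus strand, 0.73 ± 0.02).

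Ranked by overlapping pairs, 4 of the 5 highest came from loci 7, 36 and 12. The first was in locus 7, with 2.53 and 3.33, or 2.93 ± 0.56 (SD, n = 2). The second and the fourth were in locus 36, with 1.89 and 1.64 in replicate 1 against the same replicate 2 interval at 2.69. The third was in locus 28, which is not among the highest loci (1.26 ± 0.83, SD, n = 2), with 1.24 and 3.10, the widest disagreement of the 5, and the fifth was in locus 12, with 1.77 and 2.22. The 5 lowest pairs lay in loci 14, 10, 33, 35 and 28. Their means ran from −0.02 ± 0.32 at chr6:26199935-26200060 (plus strand, −0.25 and 0.20) to 0.35 ± 0.34 at chr6:27806417-27806485 (plus strand, 0.11 and 0.59). The 3 between them were at chr6:26156588-26156742 (0.03 and 0.28), at chr1:149783696-149783837 (−0.02 and 0.50) and at chr1:149857923-149857997 (−0.11 and 0.62). Locus 28 thus held a high and a low pair within 385 bases.

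The windows differed more in support than in fold. The first chromosome 6 window, of 269 kb, held 41 and 43 intervals in 21 loci, with medians of 0.95 and 1.32. A −log10 p of at least 3 was present in 15 (36.6%) and 24 (55.8%) of them, and 1 interval in each replicate was below input. The second window, of 92.0 kb, held 22 and 18 intervals in 11 loci, with medians of 1.07 and 1.14. There 2 in each replicate had a −log10 p of at least 3 (9.09% and 11.1%), against 14.2% and 13.8% of all intervals. The chromosome 1 window, of 78.0 kb, held 12 and 9 intervals in 4 loci, with medians of 1.02 and 0.69, and −log10 p was at least 3 in 4 and 1. The medians of the windows, 1.14 ± 0.26, 1.10 ± 0.05 and 0.85 ± 0.23 (SD, n = 2), differed by about as much as the replicates within them.

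Each window had long stretches without an interval. Over both replicates the longest was 47.5 kb in the first chromosome 6 window, 26.3 kb in the second and 38.1 kb in the chromosome 1 window. In replicate 1 alone, no interval of the chromosome 1 window lay in the 72.6 kb from 149785116 to 149857745. In replicate 2 there was 1 in that stretch, the interval of −0.41 given above. The chromosome 1 run in RefSeq holds 11 genes. Their order is H2BC18, H3C13, H4C14, H3C14, H2AC18, H4C15, H2AC19, H3C15, H2BC21, H2AC20 and H2AC21. Which of these genes lie in the 72.6 kb stretch was not determined, and their sequences were not compared here.

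At the end of the chromosome 1 window, a plus-strand locus lay within the span of a minus-strand locus, but their intervals did not overlap. The minus-strand locus 35, chr1:149857743-149859414, had the most intervals of the member loci, 6 in replicate 1 and 4 in replicate 2. Its level was 0.87 ± 0.10 (SD, n = 2). Its intervals lay in groups up to 149858221 and from 149859136, which the 1 kb rule joined. The plus-strand locus 36 lay in the gap between these groups. It was higher than locus 35 by 0.97 in replicate 1 and 1.75 in replicate 2, a difference of 1.36 ± 0.55 (SD, n = 2) that was larger than the spread between replicates. The level of locus 35 averages both groups. Its interval at chr1:149859328-149859414 had 2.07 in replicate 1, above the 1.89 and 1.64 of locus 36. In replicate 2 the overlapping interval had 1.67, below the 2.69 of locus 36.

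Divergent neighbours showed no common direction. Many H2A and H2B genes stand head to head and share a promoter. In 6 places a minus-strand locus was followed within 1 kb by a plus-strand locus, with gaps of 294 to 550 bases, and in 4 of them both loci had both replicates. The plus strand minus the minus strand was 0.03 ± 0.20 for loci 8 and 9, −0.73 ± 0.66 for loci 13 and 14, 0.24 ± 0.08 for loci 16 and 17 and 0.01 ± 0.73 for loci 31 and 32 (SD, n = 2). The sign was the same in both replicates for loci 13 and 14 and for loci 16 and 17. The 6 places leave out the end of the chromosome 1 window. There the minus-strand intervals up to 149858221 come before locus 36, but the 1 kb rule joined them into locus 35, which runs past it. The highest of these minus-strand intervals had 1.35 in replicate 1 and 0.82 in replicate 2. Locus 36 was above them, with 1.89 and 1.64 in replicate 1 and 2.69 in replicate 2. By strand, all members had medians of 0.95 and 1.11 on plus and 1.11 and 1.23 on minus.

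Within loci, the sides of the midpoint were compared. In loci with at least 5 intervals and 1 on each side, the 3′ side exceeded the 5′ side by a mean of 0.28 in replicate 1 (12 loci) and 0.17 in replicate 2 (12 loci), or 0.22 ± 0.08 (SD, n = 2). Over all loci with at least 5 intervals it did so by 0.07 and 0.06. Those include runs of up to 344 intervals, against at most 10 in the member loci, and were not matched to them for length. The 3′ side was higher in 9 of 12 loci (75%, against 53.1% of all such loci) and 8 of 12 (66.7%, against 52.8%). These shares exceed the background by about 2 or 3 loci, and no test was made. Of 11 loci measured on both sides in both replicates, 5 were higher on the 3′ side in both, 1 was lower in both (locus 35) and 5 had opposite signs. The mean rests on which loci are counted. Without the 2 chromosome 1 loci longer than 1.5 kb it was 0.40 ± 0.0057 (10 loci in each replicate), and in the single locus with at least 10 intervals, locus 35, it was −0.93 ± 0.07. In both of these long loci the sides are separate groups of intervals joined across a gap. Their side differences need not compare the ends of 1 transcript.

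The profiles of 4 loci, chosen after their values were seen, show individual cases. In locus 6 the 5′ interval had 0.20 in replicate 1 and 0.55 in replicate 2, and the intervals 3′ of it had 1.97 in replicate 1 and 1.67 and 1.39 in replicate 2. In locus 7 replicate 2 went from 1.94 at the 5′ end to 3.40 before a last value of 3.11. In locus 21 replicate 2 went from 1.53 through 2.03 to 2.27, while replicate 1 went from 1.31 to 1.79 and then to 1.35. In locus 24, on the plus strand at chr6:27777866-27778250, the first intervals had 0.35 and 0.47 and the last had 1.29 in replicate 1 and 2.30 in replicate 2.

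**Figure D5:**
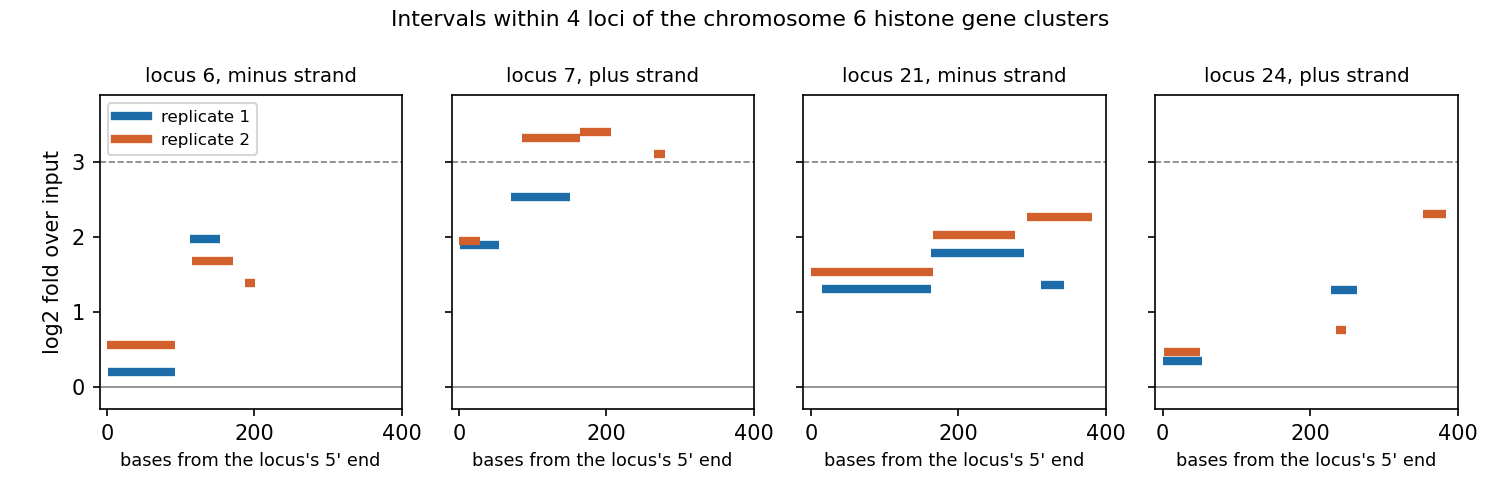
Log2 fold over input (vertical axis) of each interval, drawn as a bar over its extent in bases from the locus's 5′ end (horizontal axis), in loci 6, 7, 21 and 24 and in both replicates; the dashed line marks a log2 fold of 3. The interval at the 5′ end has the lowest value of its replicate in each of the 4 loci.

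The difference in median depended on what the members were set against. For the rest of chromosomes 1 and 6 the medians were 1.11 and 1.15, so that the members differed by −0.14 in replicate 1 and 0.04 in replicate 2, a mean of −0.051 ± 0.13 (SD, n = 2) that was within the spread. The enriched shares there were 4.26% and 4.80%, against 0 of 75 members and 7.14% of 70 members.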

How the data were processed

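Per the labels' protocols, reads went through the eCLIP pipeline of the study's collaborators. The tools were STAR 2.7.6a, SAMtools 1.6, cutadapt 1.14 and UMI-tools 1.0.0, with hg19 as the build, per the submitters' processing notes. Not given in the sources used here are the peak caller, the depth scaling and which input served which replicate. For each interval the authors deposited a −log10 p over input (at most 400, and 0 at every negative fold) and a log2 fold over input, both read from the values because the lists have no header. Starts were converted to 1-based positions.

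Intervals were compared between the 2 replicates by overlap of at least 1 base on a strand, taking the longest, and joined into loci at gaps of up to 1 kb. Means and SDs are over the 2 replicates, which the labels call biological without naming separate cultures. Named by rule were the 5 highest and 5 lowest pairs and loci with at least 10 intervals; other loci were chosen after their values were seen. Members and thresholds were chosen with earlier results of these data known. Overlap, locus and side computations were checked on simulated data. No sequence or gene annotation of hg19 was used here; RefSeq (GRCh38.p14) gave gene names and their order. Computations ran in Python 3.11.15 with SciPy 1.17.1, pandas 2.3.3, matplotlib 3.10.9 and numpy 2.4.6.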

Additional observations from a re-analysis of the deposited data

How the results depend on the processing

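No paired analysis was possible because the inputs have no list of their own and enter only through the deposited folds. Of 44 alternatives, 31 kept a value within the replicate SD, its interval or 1.5 times, and 13 moved it. The cause was not tested. Some of the 31 could not have moved. With 2 replicates, leaving out either always stays within their SD. Keeping the HFE stretch or only intervals wholly inside the windows changed no member, and stricter counts of 0 regions stay 0. The 31 are therefore no measure of robustness. The mean enriched share of 3.57% became 29.9% with the log2 threshold at 1 (all intervals 14% and 13.7%) and 9.14% with it at 2 (11% and 11.3%). The median difference of −0.21 became −1.05 among intervals with a −log10 p of at least 3 (a selection that depends on the fold), −0.48 among those overlapping the other replicate, −0.39 weighted by width and −0.051 against the rest of chromosomes 6 and 1. The share below input of 4.76% became 0% at a log2 fold of −1 or lower (all intervals 2.43% and 2.37%, within the limit of 4% that 0 of 75 allows). Recurrence of 76.0% became 95.2% for members with a −log10 p of at least 3 (all such intervals 89.4%). The 3′ minus 5′ difference of 0.22 became 0.36 and 0.14 at gaps of 0.5 and 2 kb, 0.34 with at least 3 intervals, −0.93 with at least 10 (1 locus) and, in an alternative added after seeing the data, 0.40 without the 2 long chromosome 1 loci. Leaving out a replicate gave enriched shares of 0% and 7.14%, median differences of −0.31 and −0.11, shares below input of 2.86% and 6.67%, locus medians of 0.87 and 1.20 and side differences of 0.17 and 0.28. Enriched members came from replicate 2 alone, and 3 of 5 from locus 7. Unknown depth limits every single fold.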

Other observations

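Folds in the lists repeat exact values. A log2 fold of 0.11 was shared by 4 members of replicate 1 and 1.11 by another 4, and 1.59 by 3 members of replicate 2. A value found elsewhere in the same list was held by 67 of 75 members in replicate 1 (89.3%, against 97.7% of all intervals) and 61 of 70 in replicate 2 (87.1%, against 98.0%). Within 5 kb outside the edges of the 3 windows there were 0 intervals in either replicate, and 0 intervals crossed an edge.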
